A study of Mus musculus with 21 samples.

Results

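Aging was followed in mouse brain microglia labelled Trem1-/- by setting 3 libraries labelled aged against 3 labelled young, which are 6 of the 21 samples of the study. The samples were chosen by their genotype and age labels alone, and the per-library normalized counts of the aging table were compared gene by gene. All 16086 genes whose mean over the 12 libraries of that table was at least 10 were tested. The other 6 libraries of the table, 3 young and 3 aged wild type, gave the reference aging comparison, and the study's remaining 9 samples come from adult mice in a separate table and were not used. Young and aged are words in the labels, with no months. The labels give neither a strain, nor the construct of the Trem1 allele, nor how the cells were isolated, and nothing in them says whether replicates stand for different animals. The p-values are therefore measures of the spread between these samples only, which may be technical.

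Microglia are the resident macrophages of the brain and depend on signalling through the receptor Csf1r. They clear debris through phagocytic and complement receptors and digest it in lysosomes with cathepsins and other acid hydrolases. Trem1 is a myeloid surface receptor that signals through the adaptor DAP12 and amplifies inflammatory responses, and deletion of it was the study's intervention. Aging microglia are known for changes in lysosomal, lipid-handling and inflammatory genes.

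The libraries labelled Trem1-/- held 13278399 to 16012260 reads on genes when young and 8600878 to 14163297 when aged. Aged replicate 3 stood apart, with the fewest reads of all 12 libraries and the most genes with a read, 24877 against 18749 to 23872 in the other 11, so medians and calls that move by over 1.5 times without it are given with and without it. Trem1 itself was not lost from the libraries labelled Trem1-/-. Its normalized count was 89.4, 99.8 and 89.5 in the young libraries and 124, 124 and 244 in the aged ones, and the groups did not overlap. The age change was 0.74 ± 0.45 on the log2 scale (SE) with an adjusted p of 0.459, so it did not pass the test. Without aged replicate 3 the change was 0.42 (adjusted p = 0.743). Trem1 averaged 13.9 in young and 231 in aged wild type. The deleted stretch is not given, so genotype is used below only as labelled. The microglial genes of a list of 27 were present in all 6 libraries, with none at 0, and summed to 631450 to 657720 normalized counts when young and 492070 to 554340 when aged. Of the T and NK cell genes, Cd3g, Trac and Trbc2 were at 0 in all 6.

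Promoter letters are shown for 4 of the genes described below, because several lysosomal genes fell and the homeobox gene Otx2 rose with its call kept in every fit with 1 library left out. The sequences are RefSeq promoters of GRCm38.p6, from 250 bases before to 50 bases after an annotated start, written 5′ to 3′ along the gene. Capitals mark CACGTG, the core of the motif read by the lysosomal factor TFEB, in the first 3, and GTTGCC, the half-site of RFX factors of ciliated cells, in Otx2. Both strands were searched. The windows are chr2:164833523-164833822 (plus) for Ctsa, chr12:102439043-102439342 (minus) for Lgmn, chr11:102430257-102430556 (plus) for Grn and chr14:48667459-48667758 (minus) for Otx2. Those of Ctsa and Lgmn belong to one of their 2 annotated starts, and the other start of each had no CACGTG, while Otx2 has 4 annotated starts of which 2 held GTTGCC. Grn held neither motif.
Ctsa: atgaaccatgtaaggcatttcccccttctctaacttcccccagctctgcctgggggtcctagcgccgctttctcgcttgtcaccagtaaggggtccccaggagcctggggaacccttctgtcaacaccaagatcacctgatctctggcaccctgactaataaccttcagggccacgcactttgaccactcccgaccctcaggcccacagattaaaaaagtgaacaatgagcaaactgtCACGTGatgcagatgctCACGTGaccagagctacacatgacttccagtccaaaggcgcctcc
Lgmn: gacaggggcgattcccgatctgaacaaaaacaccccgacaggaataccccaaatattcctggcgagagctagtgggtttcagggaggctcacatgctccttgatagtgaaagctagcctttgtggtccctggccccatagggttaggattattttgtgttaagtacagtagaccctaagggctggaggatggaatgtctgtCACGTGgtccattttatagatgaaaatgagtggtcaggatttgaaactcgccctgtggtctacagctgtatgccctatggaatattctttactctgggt
Grn: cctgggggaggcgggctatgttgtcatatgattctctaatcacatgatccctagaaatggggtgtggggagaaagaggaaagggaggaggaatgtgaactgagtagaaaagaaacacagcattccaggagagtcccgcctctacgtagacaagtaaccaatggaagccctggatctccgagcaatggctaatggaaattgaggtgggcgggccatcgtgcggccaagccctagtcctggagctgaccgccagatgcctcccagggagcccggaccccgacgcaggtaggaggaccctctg
Otx2: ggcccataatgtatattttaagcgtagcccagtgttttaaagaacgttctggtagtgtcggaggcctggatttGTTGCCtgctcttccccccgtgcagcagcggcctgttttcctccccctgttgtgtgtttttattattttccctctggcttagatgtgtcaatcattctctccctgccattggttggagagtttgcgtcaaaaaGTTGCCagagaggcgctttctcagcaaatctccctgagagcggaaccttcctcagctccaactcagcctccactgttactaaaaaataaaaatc

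CACGTG was found in 7.15% of all promoters of the table, in 11.6% of those of genes tested, and in 18 of the 60 with an entry among the 3 lysosomal lists. Among the lysosomal genes that fell it was found in 3 of 11. GTTGCC was found in 12.5% of all promoters, in 15.02% of those of genes tested, in 25 of 135 promoters of genes that rose (18.5%), and in 3 of 10 of the choroid plexus and ependymal list. A match describes letters in a window, and no binding was measured.

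With age, 275 genes changed in the libraries labelled Trem1-/-, 1.71% of those tested. Of these, 173 rose (1.08%) and 102 fell (0.634%), at an adjusted p under 0.05 from limma on log2(normalized count + 1). The rises and falls were of different kinds. Rises were large changes of weakly read genes, with a median log2 change of 2.15 and a median level of 150 normalized counts, and 152 of the 173 exceeded 2-fold. Falls were small changes of strongly read genes, with a median log2 change of -0.49 and a median level of 4516, and 4 of the 102 exceeded 2-fold. The median level of all genes tested was 192 and their median change was 0.00. The count depends on the model, with 12 genes called by limma without its trend and robust options, 215 by edgeR and 605 by DESeq2. It also depends on the scaling, since upper quartile scaling moved the median of all genes to -0.18 and called 243 higher and 1148 lower. The groups did not overlap in 3410 genes (21.2%), of which 1823 were higher (11.3%) and 1587 lower (9.87%) in the aged libraries.

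**Figure D1:**
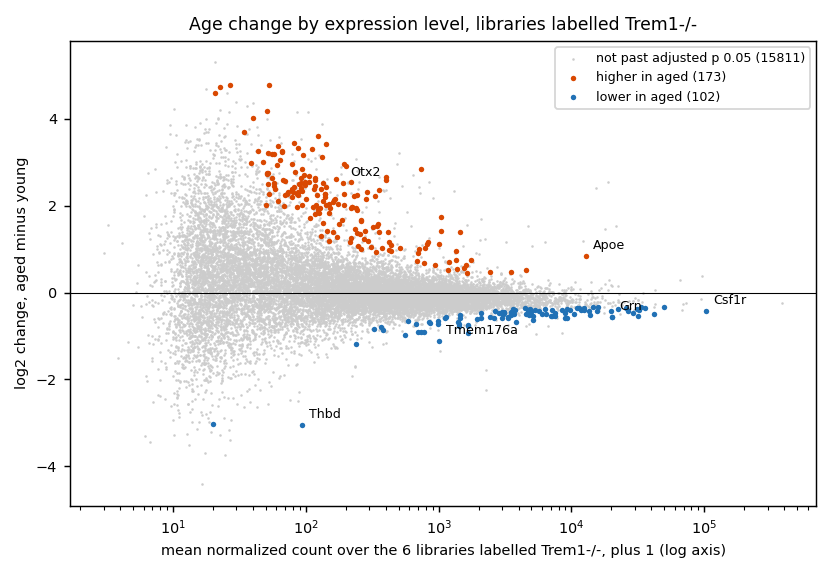
Each point is 1 of the 16086 genes tested, placed by its mean normalized count over the 6 libraries labelled Trem1-/- plus 1 (log axis) and its log2 age change, with colour for the 173 genes that rose and the 102 that fell. The rises lie at low levels with large changes and the falls at high levels with small ones, with Csf1r at the far right and Thbd at the bottom.

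How far the calls rest on 1 library was looked at by leaving out each of the 6 in turn. In every one of these fits 57 genes kept their call, 36 rises and 21 falls. Without aged replicate 3, 182 genes were called (1.13%), 107 higher and 75 lower, and 135 of them were among the 275. Without young replicate 2, young replicate 3 or aged replicate 2 the counts were 94, 94 and 92. Young replicate 3 was the lowest young library for 87 of the 173 rises, and aged replicate 2 was the lowest aged library for 66 of the 102 falls. A gene is said below to have kept its call only where it did so in all these fits.

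Some of the genes that mark microglia fell. Of 27 homeostatic genes tested, 0 rose and 4 fell, namely Csf1r, the scavenger-like receptor Fcrls, the secreted protein Olfml3 and the matrix protein Sparc. Their list had a median log2 change of -0.22 against 0.00 for all genes, and 25 of the 27 changes were below 0. In 13 of 27 the groups did not overlap, with the aged libraries lower. Of all genes tested, 0.634% fell and 9.87% did not overlap with the aged libraries lower. In bulk RNA, fewer cells of a type and less RNA per cell cannot be told apart. Csf1r, the receptor for the growth factors that microglia need to survive, had 116620, 120520 and 116170 normalized counts in the young libraries and 92278, 80664 and 89682 in the aged ones. Every aged library was below every young one. Csf1r fell by 0.43 ± 0.07 on the log2 scale (adjusted p = 0.00142) and kept its call.

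Fcrls went from 27317, 22042 and 23095 to 15580, 15780 and 17331, a log2 change of -0.57 ± 0.09 (adjusted p = 0.00281). Olfml3 went from 36080, 31792 and 32956 to 23999, 22988 and 25947, a log2 change of -0.47 ± 0.08 (adjusted p = 0.00475). Both kept their call and neither overlapped between the ages. Sparc had a change of -0.42 ± 0.08 (adjusted p = 0.0101), but its call was lost without aged replicate 2 or young replicate 3, with adjusted p up to 0.0919. The purinergic receptor P2ry12, a much used microglial marker, was at 29452, 30556 and 33750 when young and 29930, 28334 and 27903 when aged. Its groups overlapped, and the change of -0.12 ± 0.09 did not pass (adjusted p = 0.542). The fractalkine receptor gene Cx3cr1 had a change of -0.26 ± 0.08 and did not pass (adjusted p = 0.0783). In the same wild-type comparison 15 of the 27 fell, against 2.24% of all genes tested, with a median of -0.30. The age change differed between the genotype labels for Gpr34 and Ecscr, which fell less in the libraries labelled Trem1-/-.

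In 3 lists of lysosomal genes, 14 members fell and 0 rose, while 0.634% of all genes tested fell. Of 30 lysosomal hydrolases and their activators, 7 fell (among them Gusb, Asah1, Ppt1, Pla2g15, Psap and Grn), and of 15 cathepsins and cathepsin inhibitors, 5 fell (Ctsa, Ctsb, Ctsc, Ctsl and Lgmn). Of 34 lysosomal membrane and acidification genes, 2 fell (Scarb2 and Laptm5). The median log2 changes were -0.31, -0.35 and -0.17, and the aged libraries lay entirely below the young ones in 19 of 30, 11 of 15 and 11 of 34 genes, against 9.87% of all genes tested. Summed cathepsin-list counts were 364450 to 378560 when young and 264900 to 304320 when aged.

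Grn, which encodes progranulin, a secreted and lysosomal protein needed for normal lysosome function, lies on chromosome 11 at 102430315 to 102437048. It had 23035, 24898 and 23793 normalized counts in young and 17745, 14998 and 15952 in aged libraries. The change was -0.56 ± 0.09 (adjusted p = 0.00126), with no overlap, and the call was kept. Lgmn, the asparaginyl endopeptidase legumain, went from 51927, 49874 and 45105 to 37083, 32103 and 35285, a change of -0.49 ± 0.08 (adjusted p = 0.00300). Gusb, the beta-glucuronidase, went from 3885, 3448 and 3537 to 2673, 2444 and 2156, a change of -0.58 ± 0.12 (adjusted p = 0.00940). Both also kept their call, and every aged library was below every young one.

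The other called genes named from these 3 lists each lost their call when 1 library was left out. Ctsl, a cysteine protease, had a change of -0.54 ± 0.12 and lost its call without any of 5 of the 6 libraries (adjusted p up to 0.131), aged replicate 3 being the exception. Ctsc, the dipeptidyl peptidase that activates granule proteases, had a change of -0.49 ± 0.11. Ctsa, a carboxypeptidase that protects other hydrolases, had 10429, 10844 and 10354 counts when young and 8016, 8017 and 8166 when aged, a change of -0.39 ± 0.08. Ctsc and Ctsa lost their calls without young replicate 2, young replicate 3 or aged replicate 2, with adjusted p up to 0.102 for Ctsc and 0.0816 for Ctsa. Ppt1, a palmitoyl thioesterase (-0.46 ± 0.10), and Pla2g15, a lysosomal phospholipase (-0.42 ± 0.10), were called on all libraries, and each lost its call without aged replicate 2 or young replicate 3, among others (adjusted p up to 0.109 and 0.136). Laptm5 (-0.38 ± 0.08) and Scarb2 (-0.39 ± 0.09), which carries glucocerebrosidase to lysosomes, lost theirs without aged replicate 2 or young replicate 2, among others (adjusted p up to 0.153 and 0.124). The lysosomal membrane protein gene Lamp1 had a change of -0.37 ± 0.11 and did not pass (adjusted p = 0.0767).

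Without aged replicate 3 the called counts in the hydrolase, cathepsin and membrane lists were 3, 4 and 1, all lower, with medians of -0.32, -0.39 and -0.21. Exons of Ctsa overlap those of Pltp, which rose, and exons of Grn, Ppt1, Ctsl and Lamp1 also overlap those of another annotated gene. The strandedness of the counts is not given, so reads of such pairs cannot be told apart.

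**Figure D2:**
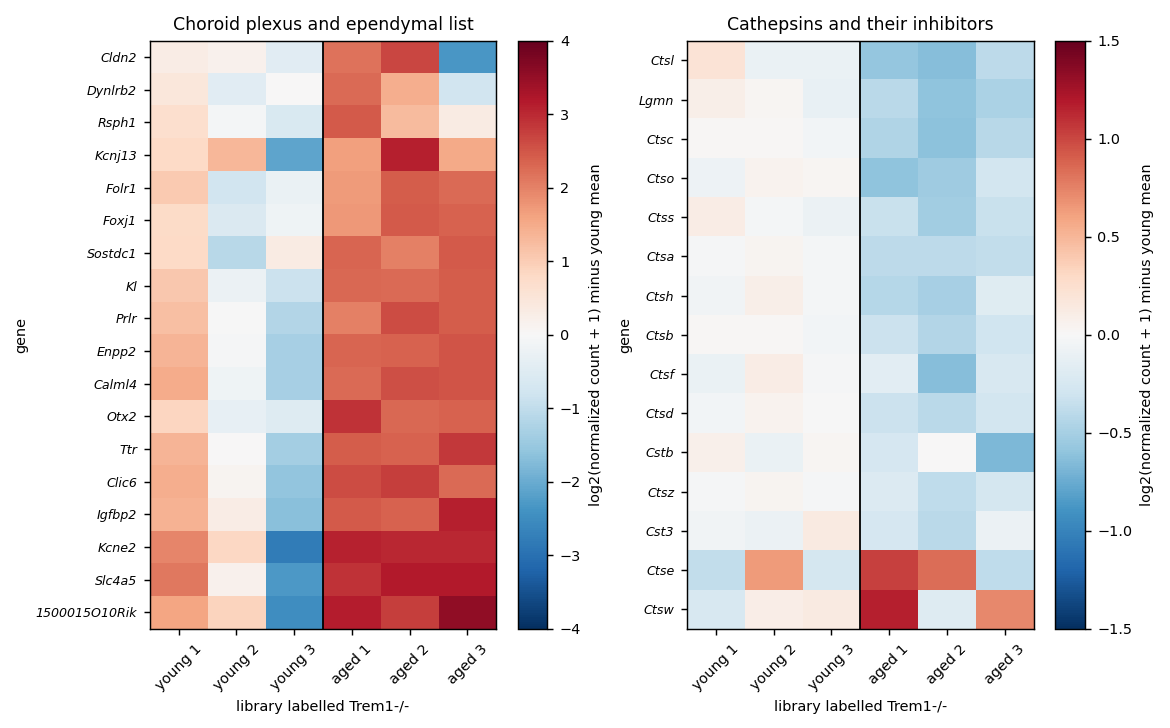
Heat maps of log2(normalized count + 1) minus the mean of the 3 young libraries, for the 18 tested choroid plexus and ependymal genes (left) and the 15 tested cathepsin and inhibitor genes (right), with 1 column per library labelled Trem1-/-. The left map is red in most aged cells and spreads among the young libraries, with replicate 1 highest. The right map is pale to blue in the aged libraries except for Ctse and Ctsw.

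Complement and Fc receptor genes showed smaller sets of falls, while 0.634% of all genes tested fell. Of 17 complement genes, 2 fell and 0 rose, with a median of -0.23, and without aged replicate 3 only 1 fell, C1qb. C1qb, a chain of the recognition molecule C1q, was at 41873, 33531 and 37847 when young and 24359, 24998 and 28682 when aged. The aged libraries were all lower, the change was -0.54 ± 0.10 (adjusted p = 0.00538), and the call was kept. The other C1q chains had changes of -0.36 ± 0.11 for C1qa (adjusted p = 0.0921) and -0.40 ± 0.12 for C1qc (adjusted p = 0.116). Of 7 Fc receptor genes the neonatal receptor heavy chain Fcgrt fell, from 1329, 1245 and 1140 to 764, 749 and 724. Its change of -0.73 ± 0.13 (adjusted p = 0.00475) kept its call. The groups of 6 of the 7 receptors did not overlap, with the aged libraries lower, against 9.87% of all genes tested.

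Uptake and sensing genes gave 2 falls of 21 and 1 fall of 17, while 0.634% of all genes tested fell. Pros1, protein S, which bridges apoptotic cells to TAM receptors, went from 5892, 5599 and 5484 to 3994, 4051 and 3861. The change was -0.51 ± 0.09 (adjusted p = 0.00475), with no overlap, and the call was kept. The integrin chain gene Itgb5 was called at -0.35 ± 0.09, but not without any of 5 of the 6 libraries (adjusted p up to 0.197), aged replicate 3 being the exception. Cd14, the co-receptor for lipopolysaccharide, was called at -0.55 ± 0.12 and lost its call without aged replicate 2, aged replicate 3, young replicate 2 or young replicate 3 (adjusted p up to 0.101). Among 24 cytokine and NF-kB feedback genes 1 fell, the TNF receptor gene Tnfrsf1b, from 5683, 6147 and 6245 to 4159, 3823 and 4532. Its change of -0.53 ± 0.10 (adjusted p = 0.00475) kept its call.

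The cyclooxygenase gene Ptgs2 had no read in any young library labelled Trem1-/- and 28.9, 48.5 and 40.6 normalized counts in the aged ones. Against a floor of 3 reads in each young library that was at least 13.7-fold higher. The limma test did not pass (adjusted p = 0.0684), while DESeq2 called the gene. None of the 22 genes of the TREM and DAP12 list was called by limma, with a median of -0.22, while 7 had an unadjusted p under 0.05, edgeR called 0 and DESeq2 1.

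Lipid genes went both ways. Of 28 genes of the disease-associated microglia programme 3 rose (Apoe, Lpl and Spp1) and 2 fell (Ctsb and Ctsl), with a median of 0.04, and of 20 genes of lipid efflux and droplets 3 rose (Apoe, Pltp and Scd1) and 1 fell (Abcg1). Of all genes tested, 1.08% rose and 0.634% fell. The disease-associated median was -0.14 with upper quartile scaling, where that of all genes was -0.18. Without aged replicate 3 the disease-associated list had a median of 0.00, with 1 rise (Apoe) and 1 fall (Ctsl). Apoe, the main lipid carrier of the brain, lies on chromosome 7 at 19696109 to 19699188. It was at 9682, 9589 and 8405 when young and 17504, 15337 and 16815 when aged. All aged libraries were higher, and the change was 0.84 ± 0.14 (adjusted p = 0.00475), a call that was kept.

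The lipoprotein lipase gene Lpl went from 178, 199 and 153 to 453, 304 and 472, a change of 1.19 ± 0.24 (adjusted p = 0.0113). Spp1, the secreted phosphoprotein osteopontin, went from 43.4, 40.7 and 6.32 to 106, 153 and 113, a change of 2.37 ± 0.56 (adjusted p = 0.0293). Scd1, a fatty acid desaturase, went from 39.999, 18.4 and 26.3 to 96.2, 152 and 212, a change of 2.40 ± 0.47 (adjusted p = 0.00932). In none of these did the groups overlap, but each lost its call with a library left out. For Scd1 that library was young replicate 2 (adjusted p = 0.0575), for Lpl it was aged replicate 1 or 3 or young replicate 3 (up to 0.0817), and for Spp1 any aged replicate or young replicate 3, among others (up to 0.171). Abcg1, a cholesterol exporter, had a change of -0.49 ± 0.10 (adjusted p = 0.0135), lost without aged replicate 2 or young replicate 2 (up to 0.0986). Pltp, the phospholipid transfer protein, had a change of 1.30 ± 0.31 (adjusted p = 0.0293), lost without any aged replicate or young replicate 2 or 3 (up to 0.165). Of 20 cholesterol synthesis genes 0 were called by limma, edgeR or DESeq2, and 2 had an unadjusted p under 0.05.

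Most ribosomal protein genes had changes below 0. Of 80 cytosolic ribosomal protein genes 3 fell (Rpl38, Rplp0 and Rplp1), against 0.634% of all genes tested, and 0 rose. The median was -0.29, 73 of the 80 changes were below 0, and 27 did not overlap with the aged libraries lower, against 9.87% of all genes. At an unadjusted p under 0.05 there were 30, while edgeR called 0 and DESeq2 6, and without aged replicate 3 limma called 1, Rplp1. The share of reads on ribosomal protein genes was 1.15% to 1.27% in the young and 0.914% to 1.11% in the aged libraries, which did not overlap. The share on the nuclear RNA Malat1 moved the other way without overlap, from 0.559% to 0.662% in the young to 0.692% to 1.02% in the aged libraries. The ribosomal protein share is computed from the genes of the same list, so it is not a separate measure of their falls. The part of the Malat1 difference in the falls was not tested. Rplp0 had a change of -0.48 ± 0.12 and Rplp1 one of -0.53 ± 0.13 (both adjusted p = 0.0444), and both lost their calls without aged replicate 1 or 2 or young replicate 2 or 3 (adjusted p up to 0.201). Reads of ribosomal protein genes may be shared with their many pseudogenes, so single values are uncertain.

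The falls that kept their calls also held P4hb and Rpn2, which are on none of the lists and were named after their values were seen. P4hb, the protein disulfide isomerase, went from 8795, 7643 and 8505 to 5672, 5458 and 5984, a change of -0.54 ± 0.10 (adjusted p = 0.00475). Rpn2, a subunit of the glycosylation complex, went from 4269, 3733 and 4004 to 2946, 2533 and 2539, a change of -0.58 ± 0.11 (adjusted p = 0.00653). In both, every aged library was below every young one. The age change of both differed between the genotype labels, with an adjusted p of the difference of 0.0307 for P4hb and 0.0100 for Rpn2. Neither changed in wild type by the test. Of the 20 heat shock and chaperone genes on their list, 0 fell and 1 rose, while 1.08% of all genes tested rose. That gene, the small heat shock protein Cryab, went from 34.9, 46.5 and 28.4 to 241, 166 and 174. Its change of 2.38 ± 0.43 (adjusted p = 0.00475) kept its call. The median of that list was -0.16.

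Ranked over genes without overlap that averaged at least 50 normalized counts in one of the ages, the largest falls were led by Thbd, thrombomodulin, a surface receptor for thrombin, at 95.3, 237 and 158 when young and 13.1, 11.2 and 36.1 when aged. The groups were far apart, with a change of -3.05 ± 0.69 (adjusted p = 0.0217), but the call was lost without aged replicate 1 or 2 or young replicate 2 or 3 (up to 0.140). Below that level Cbx2, a Polycomb protein gene named after its values were seen, fell from a mean of 34.7 to 3.37, a change of -3.01 ± 0.79 (adjusted p = 0.04996) that was lost without any 1 of the 6. Above it, Rpl38 followed Thbd at -1.18 ± 0.30, lost without any 1 of the 6 (up to 0.162). Tmem176a, a membrane protein of myeloid cells, lies on chromosome 6 at 48840919 to 48847071 and went from 1468, 1437 and 1213 to 598, 586 and 705. Its change of -1.12 ± 0.16 (adjusted p = 9.96e-04) kept its call. The neighbouring Tmem176b fell by 0.69 ± 0.11 on the log2 scale, and its exons overlap those of Tmem176a on the opposite strand, so their reads cannot be told apart.

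The other 12 of the 15 largest falls at that level ran from -0.99 for the G protein-coupled receptor gene Gpr35 to -0.73 for Fcgrt. In order they were Gpr35, the protease inhibitor Spint1, the potassium-chloride transporter Slc12a7, the actin-binding protein Tagln2, the glycosyltransferase Galnt12, the mitochondrial deubiquitinase Usp30, Ngdn, Thap11, the interferon-induced GTPase Gbp7, the lysosomal amidase Naaa, the creatine synthesis enzyme Gatm and Fcgrt. Of these, Galnt12, Gatm and Fcgrt kept their calls. Galnt12 went from 1086, 954 and 856 to 476, 635 and 435, a change of -0.92 ± 0.17. Gatm went from 2438, 2118 and 1661 to 1378, 1140 and 1160, a change of -0.74 ± 0.14. The other 9 lost their calls with 1 library left out, with the highest adjusted p between 0.111 for Tagln2 and 0.214 for Ngdn. Other falls that kept their calls, named after their values were seen, were Hfe, an iron regulator (-0.72), the laminin-binding integrin Itga6 (-0.59), the mannosidase Man2b2 (-0.56), Pld4 (-0.49) and the plexin Plxnb2 (-0.43).

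**Figure D3:**
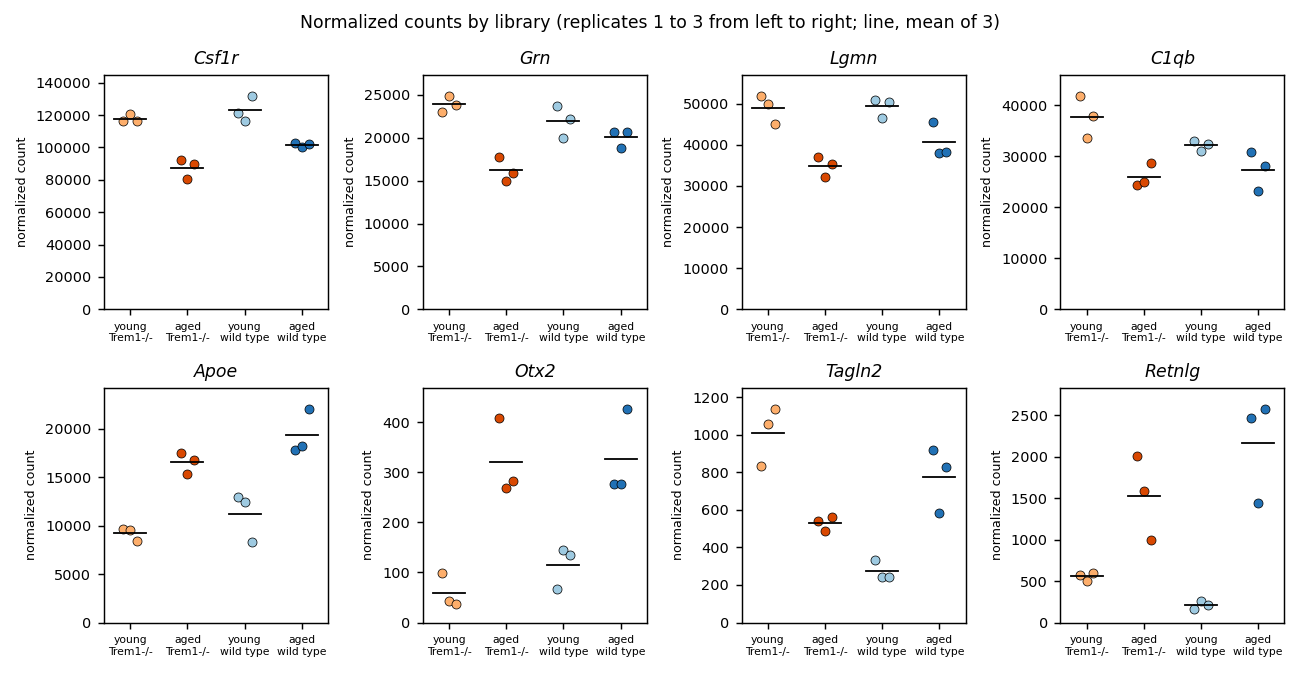
Normalized counts of 8 genes in all 12 libraries of the aging table, with 1 point per library, replicates 1 to 3 from left to right and a line at the mean of 3, on axes that start at 0. Csf1r, Grn, Lgmn, C1qb and Tagln2 are lower and Apoe, Otx2 and Retnlg higher in every aged than in every young library labelled Trem1-/-, and young wild type is lowest for Tagln2 and Retnlg.

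The largest rises were of genes barely read in the young libraries. Under the same limits, no overlap and a higher mean of at least 50, the 15 largest ran from 4.77 for the phosphatase Ptpn13 to 3.19 for the nuclear receptor Esrrg on the log2 scale. Those between them included Ankrd45, the adenylate kinase Ak9, the adhesion receptor Adgrv1, the receptor phosphatase Ptprf, the glutamine transporter Slc38a3, the ciliary gene Cfap65, the ligand Bmp6, the laminin chain Lamb1, the growth factor receptor Fgfr2, the GABA receptor subunit Gabrb1, the adaptor Grb10 and Gm13111. The young means of the genes named here were 4.10 to 25.9 normalized counts, and each lost its call with 1 library left out. Ankrd45 went from 5.11, 0.968 and 11.6 to 99.0, 99.6 and 85.7, a change of 4.16 ± 0.83, and lost its call only without young replicate 2 (adjusted p = 0.0600). Among the others named here the highest adjusted p with 1 library left out was 0.0550 for Fgfr2 to 0.159 for Bmp6. Below that level, and named after their values were seen, Tcaf2 rose from 5.11, 0 and 0 to 58.8, 42.3 and 48.1, a change of 4.78 ± 0.96 (adjusted p = 0.0100) that kept its call. Vgll3 was called on 3 reads in the young and 100 in the aged libraries, a ratio of 41.4 with an exact 95% counting interval of 13.8 to 204.3, and lost its call without any aged replicate, among others. Cspg4, also below that level, is given with the oligodendrocyte-lineage genes. The floor of 3 reads was worth 2.55 to 3.16 normalized counts in young libraries and 2.80 to 4.51 in aged ones, which covers counting error only.

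Rises that kept their calls included stronger signals, named after their values were seen. Col6a3, a collagen VI chain, went from 598, 847 and 970 to 2056, 1900 and 2307, a change of 1.40 ± 0.16. Ildr2 went from 340, 569 and 546 to 1356, 1844 and 1599, a change of 1.74 ± 0.24. Ahcyl2 went from 988, 934 and 810 to 1831, 1712 and 1772, a change of 0.96 ± 0.14. The polarity protein Dlg5 went from 112, 130 and 105 to 541, 553 and 696, a change of 2.35 ± 0.28. In each of these the aged libraries stood clear of the young ones, and each also rose in wild type.

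Markers of choroid plexus and ependyma, the tissues that line the ventricles, were higher in the aged libraries. Of 18 tested genes 4 rose (Otx2, Folr1, Calml4 and Sostdc1) by limma, 7 by edgeR and 10 by DESeq2, against 1.08% of all genes tested that rose by limma. All 18 changes were above 0 with a median of 2.37, and 15 did not overlap with the aged libraries higher, against 11.3% of all genes. Their summed counts were 28015, 10967 and 4546 in young replicates 1, 2 and 3 and 58154, 57761 and 70547 in the aged ones. Otx2, a homeobox factor of choroid plexus epithelium on chromosome 14 at 48657677 to 48673819, was at 98.7, 42.6 and 37.9 when young and 408, 269 and 283 when aged. Its change of 2.51 ± 0.37 (adjusted p = 0.00105) kept its call. The folate receptor gene Folr1 had a change of 2.13 ± 0.40 (adjusted p = 0.00651), lost without young replicate 2 (0.0541).

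Calml4 (2.46 ± 0.50) lost its call without aged replicate 2 or young replicate 2 or 3 (up to 0.0826), and Sostdc1 (2.26 ± 0.55) without any aged replicate or young replicate 2 or 3 (up to 0.160). Ttr, transthyretin, the most abundant of the list, was at 13177, 5196 and 2039 when young and 28004, 26897 and 37118 when aged. Its young libraries spread widely, and the change of 2.55 ± 0.63 did not pass by limma (adjusted p = 0.104), while DESeq2 called it. In wild type the list's sum went from 10717 to 26852 when young to 48354 to 84563 when aged. There 5 of 18 rose, against 6.43% of all genes tested. The age change differed between the genotype labels in 0 of 18 (the test of the difference). Which cells these transcripts came from was not tested, nor was their part in the other rises.

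All 21 neutrophil genes tested had changes above 0, with a median of 1.07, and 1 rose, against 1.08% of all genes tested. That gene, the secreted protein gene Retnlg, went from 573, 504 and 594 to 2007, 1588 and 999. Its change of 1.40 ± 0.26 (adjusted p = 0.0113) was lost without aged replicate 2 or young replicate 2 (up to 0.0834). Summed neutrophil counts were 39375 to 79013 when young and 69978 to 161710 when aged and overlapped, and without aged replicate 3, the lowest aged library, 3 genes rose and the median was 1.44. Of 14 monocyte genes 0 were called, with sums of 18384 to 40076 when young and 22590 to 27797 when aged, and 2 had an unadjusted p under 0.05 while edgeR and DESeq2 called 0. One of those 2 was Cd177, better known as a neutrophil gene, at 804 to 2172 when young and 1591 to 3735 when aged. The monocyte median was -0.07, or 0.13 without aged replicate 3.

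Neuronal genes summed to 634 to 841 when young and 998 to 1396 when aged with 0 of 12 called and a median of 1.12, and astrocyte genes to 13412 to 15872 and 13798 to 16381 with 0 of 13 called and a median of 0.77, or 0.49 without aged replicate 3. At an unadjusted p under 0.05 these were 5 and 7, and DESeq2 called 1 and 2, as did edgeR. Of 10 oligodendrocyte-lineage genes 1 rose, Cspg4, the NG2 proteoglycan, against 1.08% of all genes tested. It was called on 3 reads in the young and 93 in the aged libraries. The ratio was 38.5, with an exact 95% counting interval of 12.8 to 190.3. That call was lost without aged replicate 2 (adjusted p = 0.0721), and Opalin of the same list was at 0 in all 6 libraries. Of 12 endothelial and mural genes Pltp rose, against 1.08% of all genes tested, and the median was 0.61. Without aged replicate 3 that call was lost, the endothelial cadherin gene Cdh5 was called lower, and the median was 0.19. By limma 0 of the 11 border macrophage, 5 T and NK cell, 4 B cell and 9 erythroid and platelet genes were called, with 3, 0, 1 and 0 at an unadjusted p under 0.05 and 0 by edgeR or DESeq2. In that order their medians were -0.35, 0.08, -0.19 and -0.25, and -0.21, -0.40, -0.16 and -0.90 without aged replicate 3. Summed B cell counts were 2544 to 3068 when young and 2031 to 2548 when aged.

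Energy metabolism genes gave 2 calls, both rises, while 1.08% of all genes tested rose. In glycolysis 1 of 26 rose, the glucose transporter gene Slc2a3 (1.02 ± 0.25, adjusted p = 0.04996), and in the citric acid cycle 1 of 25, the isocitrate dehydrogenase subunit Idh3a. Idh3a went from 620, 415 and 522 to 840, 886 and 829, with no overlap and a change of 0.73 ± 0.17 (adjusted p = 0.0283). The calls of both were lost without aged replicate 1 or 2 or young replicate 2 or 3, among others (adjusted p up to 0.192 for Slc2a3 and 0.160 for Idh3a). That of Idh3a was also lost without aged replicate 3. Of 70 nuclear oxidative phosphorylation genes and 13 mitochondrially encoded ones 0 were called by limma or edgeR, with medians of 0.08 and 0.18, while 4 and 0 had an unadjusted p under 0.05 and DESeq2 called 1 and 0. Those medians were -0.10 and -0.00 with upper quartile scaling, and the glycolysis median of 0.19 became 0.00. That scaling put the median of all genes at -0.18. The mitochondrially encoded median was 0.06 without aged replicate 3.

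Of 19 clock genes 1 rose, against 1.08% of all genes tested. It was the clock output factor Hlf, from 127, 167 and 144 to 335, 373 and 396, a change of 1.33 ± 0.34 (adjusted p = 0.0470). Of 12 SR factors 1 rose, also against 1.08%. It was the splicing factor gene Srsf5, from 3032, 2914 and 2848 to 4684, 4289 and 3335, a change of 0.47 ± 0.12 (adjusted p = 0.04996). Neither pair of groups overlapped, but Hlf lost its call without any 1 of the 6 libraries (up to 0.168) and Srsf5 without any 1 but aged replicate 3 (up to 0.194). The interferon (36 genes), antigen presentation (22), chemokine (14), cell cycle (35) and immediate early (23) lists held 0 genes called by limma, with medians of -0.05, -0.11, 0.39, -0.20 and -0.16. In that order 2, 2, 3, 2 and 1 had an unadjusted p under 0.05, DESeq2 called 1, 0, 1, 1 and 0, and edgeR 1 in the cell cycle list. Without aged replicate 3 these medians were 0.01, -0.07, 0.36, 0.21 and -0.30, and limma called 1 cell cycle gene, Ccnd2, higher.

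**Figure D4:**
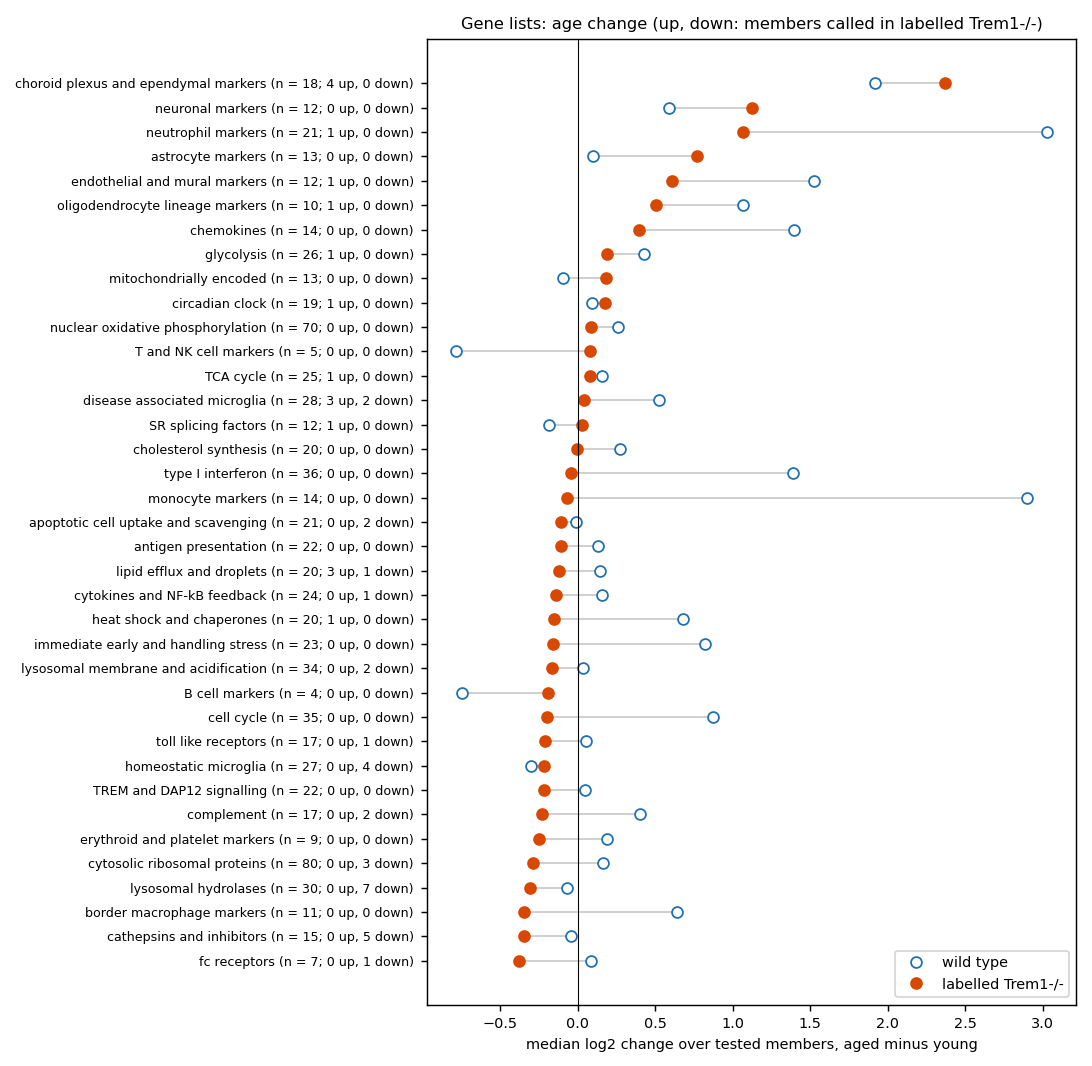
Median log2 age change over the tested members of each of the 37 gene lists, in the libraries labelled Trem1-/- (filled) and wild type (open), with the number tested and the members that rose or fell in the libraries labelled Trem1-/- in the row names. In the libraries labelled Trem1-/- the choroid plexus and ependymal list is highest at 2.37, and the lysosomal, cathepsin and Fc receptor lists lie between -0.17 and -0.38. The highest wild-type medians are those of neutrophil (3.03) and monocyte (2.90) genes.

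Wild-type aging was compared in the same fit, to see where the age change differed between the genotype labels. In wild type 1394 genes changed (8.67%), 1034 higher (6.43%) and 360 lower (2.24%), or 800 and 906 with upper quartile scaling. Of the rises in libraries labelled Trem1-/-, 96 also rose in wild type, 55.5% of the 173 and 9.28% of the 1034. Of the falls, 20 also fell in wild type, 19.6% of the 102 and 5.56% of the 360. A further 9 falls were rises in wild type, and 3 rises were falls.

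The test of the difference itself called 408 genes (2.54%), 64 with a higher (0.398%) and 344 with a lower (2.14%) age change in the libraries labelled Trem1-/-. Of the 344, 299 rose in wild type and 25 fell in the libraries labelled Trem1-/-. Over all 344 the median change was 1.64 in wild type and -0.24 in the libraries labelled Trem1-/-. In 333 of the 344 every young library labelled Trem1-/- was above every young wild-type library (11.3% of all genes tested), and in 114 every aged one was below every aged wild-type library (6.25%). The difference is computed from these same libraries, so a low change favours both patterns, and these counts are a description. Of the 64, 40 fell in wild type and 7 rose in the libraries labelled Trem1-/-, and over all 64 the medians were -0.64 and 0.49.

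Tagln2 had the smallest p of the difference and moved in opposite directions. It was at 834, 1058 and 1137 in young and 542, 488 and 560 in aged libraries labelled Trem1-/-, against 334, 243 and 244 in young and 918, 582 and 830 in aged wild type. The difference was -2.41 ± 0.27 (adjusted p = 5.70e-05). The highest aged library labelled Trem1-/- was below the lowest aged wild-type library, and the fall rested on aged replicate 2 and young replicates 2 and 3 (adjusted p up to 0.111 without 1 of them).

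The next 7 genes did not pass the age test in the libraries labelled Trem1-/- and rose in wild type. The sorting receptor Sorl1 was at 5174, 6604 and 6477 when young and 6945, 6493 and 6005 when aged, with overlap, a change of 0.10 ± 0.14 against 1.93 in wild type. Gsr, glutathione reductase, had a change of 0.01 ± 0.17 against 2.08 in wild type, and the differences were -1.83 ± 0.20 and -2.07 ± 0.24. Slfn2, S100a11, Ifitm2, Ifi207 and Adam19 had differences of -1.75, -2.85, -4.21, -3.32 and -2.73. Exons of Ifitm2 overlap those of another annotated gene.

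Among the genes named above, the difference was also called for Thbd, which fell in the libraries labelled Trem1-/- and rose in wild type (-6.09 ± 0.98, adjusted p = 0.00132), and for Ctsc, which did likewise (-0.94 ± 0.15, adjusted p = 0.00132). Gabrb1 was the one of the 15 largest rises with a called difference, 4.09 ± 0.95 (adjusted p = 0.0194), and its wild-type change did not pass. For Grn the difference of -0.43 ± 0.12 (adjusted p = 0.0546) did not pass, nor did that for Csf1r (-0.15 ± 0.09, adjusted p = 0.465), Apoe (0.04 ± 0.19, adjusted p = 0.957) or Otx2 (0.97 ± 0.52, adjusted p = 0.395). Across lists, the difference was called in 9 of 36 interferon, 7 of 80 ribosomal protein, 7 of 14 monocyte, 6 of 21 neutrophil and 5 of 17 complement genes. It was also called, among others, in 2 of 7 Fc receptor, 4 of 23 immediate early and 4 of 26 glycolysis genes. The antigen presentation list and the TREM and DAP12 list each had it called in 3 of 22 genes. In the lysosomal hydrolase, cathepsin and membrane lists it was called in 1 of 30, 1 of 15 and 1 of 34. All of these were lower in the libraries labelled Trem1-/-, as were 2.14% of all genes tested. Called differences were higher in 2 of 27 homeostatic and 1 of 12 SR factor genes, against 0.398% of all genes tested. Summed neutrophil counts were 17714 to 26518 in young wild type, below every young library labelled Trem1-/-, and those of monocyte genes were 3678 to 6360. The part of these cells in the differences was not tested.

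**Figure D5:**
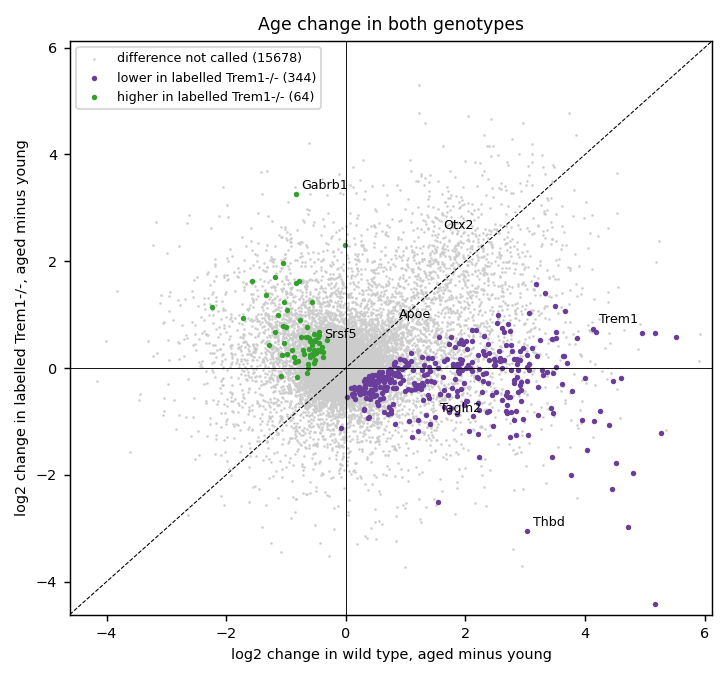
Log2 age change of each of the 16086 genes in wild type (horizontal) and in libraries labelled Trem1-/- (vertical), with the line of equal change dashed and colour for the 408 genes whose change differed by the test. The 344 genes with a lower change lie to the right near the horizontal axis, and the 64 with a higher change lie to the upper left.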

How the data were processed

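RNA was sequenced from primary mouse brain microglia. Per the labels' protocols, RNA came from the RNeasy mini plus kit and libraries from the NEBNext Ultra RNA kit. The submitters' processing notes name fastp, HISAT2 2.0.5, featureCounts 1.5.0-p3, DESeq2 1.20.0 and GRCm38, and the annotation release and strandedness are not given in the sources used here. The deposited per-library values are a signal, counts that the authors divided by a size factor, and 100% of nonzero values came within 0.05 of a whole read when put in units of 1 read. The deposited fold changes and p-values were not used.

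Genes with a mean of at least 10 over the 12 libraries were tested on log2(value + 1) with limma 3.58.1 (R 4.3.3, trend and robust), all 4 groups in 1 fit, with Benjamini-Hochberg adjustment over 16086 genes. Fold changes are on that scale, and for low genes they can lie below or above the ratio of the mean counts. Cspg4 had a log2 change of 4.59 and a ratio of means of 45.3. Slc38a3, with 1 young library well above the others, had 3.43 and 5.75. ± values are standard errors of the fit. The smallest p of an exact permutation test of 3 against 3 is 0.1, so none was used. Positions are from GENCODE M21, which matched 15991 of the symbols tested. The comparison, the 37 gene lists (860 genes) and the rules were chosen with earlier results of these data known. Named genes are Trem1, the 15 largest rises and 15 largest falls past an adjusted p of 0.05 with no overlap between groups and at least 50 as the higher mean, 4 or 2 genes per list with or without a called member, by smallest p, and the 8 smallest p of the difference. Some genes that this rule names are left out of the text and not reported here. Replicates of the 2 groups were not duplicates, with chi-square per degree of freedom of 12.9 to 24.1. The test was run on simulated data first. Alternatives were other pseudocounts, filters, scalings, a replicate block, leaving out each library, edgeR 4.0.16 and DESeq2 1.42.0 on the recovered reads.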

Additional observations from a re-analysis of the deposited data

Results flagged for a closer look

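The age change differed between the libraries labelled Trem1-/- and wild type, by the test of the difference, in 27 of the genes named by the rule. Values are log2 differences, labelled Trem1-/- minus wild type. Genes named outside the rule are not counted, although the difference was called for some, among them P4hb, Rpn2, Gpr34 and Ecscr. It was higher in the libraries labelled Trem1-/- for Gabrb1 (4.09) and Srsf5 (0.92). It was lower for Trem1 (-3.40), Thbd (-6.09), Rpl38 (-2.39), Tmem176a (-1.05), Gpr35 (-2.04), Spint1 (-1.31), Slc12a7 (-1.31), Tagln2 (-2.41), Gbp7 (-1.54), Naaa (-1.06) and Ctsc (-0.94). Among list members it was lower for Fcgr4 (-2.45), Pik3cd (-0.66), Rplp0 (-0.72), Rpsa (-0.99), Hsp90b1 (-0.82), Retnlg (-1.93) and Padi4 (-1.57). The remaining 7 were named for the smallest p of this difference, so their values are a description: Ifitm2 (-4.21), S100a11 (-2.85), Sorl1 (-1.83), Slfn2 (-1.75), Gsr (-2.07), Ifi207 (-3.32) and Adam19 (-2.73).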

How the results depend on the processing

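The count of 275 genes changed with age in the libraries labelled Trem1-/- was 12 with limma without trend and robust, 605 with DESeq2 (399 higher, 206 lower), 156 with a 2-fold minimum and 1391 with upper quartile scaling (243 higher, 1148 lower). Upper quartile scaling moved the median of all genes to -0.18, so the higher share went from 62.9% to 17.5%. Over the other settings that kept all libraries the count was 215 (edgeR) to 350 (replicate block), and with 1 library left out 92 to 365. The difference of the age effect, 408 genes, became 5, 776 and 281 under the first 3 of these settings, 197 to 790 with 1 library left out, and the wild-type count of 1394 became 581, 785 (2-fold) and 731 to 1612. Same-numbered libraries labelled Trem1-/- had residual correlations of 0.0444 to 0.0617, so numbers were not treated as pairs. Each did correlate best with its own number among the libraries labelled Trem1-/- of the other age. With wild type included this did not hold, as young labelled replicate 1 reached 0.174 with young wild type replicate 3. Reversed signs were seen for Hbb-bs (-2.47 to 0.51 with 1 library left out) and Bcas1 (1.0e-05 with edgeR, -2.59 to 0.47 with 1 library left out), both positive without aged labelled replicate 2 and neither called. The causes were not tested. Aged labelled replicate 3, with 8600878 reads, has the highest floor, 4.51 normalized counts for 3 reads.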
